A study of Mus musculus with 10 samples.

Results

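PolyU single-stranded RNA (ssRNA) given alone was compared with vehicle in mouse bone marrow-derived macrophages (BMDMs), 4 hours after treatment. The comparison used 4 of the 10 libraries of the series, 2 labelled as biological replicates of polyU and 2 of vehicle, chosen by their labels. Of the 55573 genes in the deposited table, 11978 had 1 CPM (1 read per 1000000 reads on genes) or more in 2 or more of the 10 libraries and were tested. BMDMs are macrophages grown out of marrow with the growth factor MCSF, here from female C57BL/6 mice with no genetic change stated. The polyU group received 5 μg of polyU, a synthetic RNA of uridines, complexed with DOTAP, a cationic lipid that carries RNA into endosomes. The sources used here do not say whether the vehicle held DOTAP, so effects of the RNA and of the lipid cannot be told apart. The other groups, also with 2 libraries each and also at 4 hours, were PNPi+dG/rG (1 μM ulodesine, an inhibitor of purine nucleoside phosphorylase, with 5 μM deoxyguanosine and 5 μM guanosine), PNPi+dG/rG+polyU (the same with 5 μg polyU and DOTAP) and R848 (1 ng/mL of a small-molecule TLR7 agonist). The labels do not say whether replicates came from separate mice, so p-values measure the spread between these libraries.

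Macrophages sense RNA taken up into endosomes through Toll-like receptors, and TLR7 is the receptor for ssRNA and for guanosine in the mouse. TLR7 signals through the adaptor MyD88, which leads on the one hand to NF-κB and the cytokines under its control and on the other to interferon regulatory factors and type I interferon (IFN). Secreted IFN acts back on its receptor and, through STAT and IRF transcription factors, raises a large set of IFN-stimulated genes whose products block viral replication.

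The vehicle and polyU libraries held between 17.2 and 17.8 M reads on genes (M, 1000000), so that 3 reads, taken as the smallest detectable amount, equal 0.168 to 0.174 CPM. Genes at 10 CPM or more differed between replicates by a median of 0.080 (vehicle) and 0.081 (polyU) on the log2 scale, and 0% of them by more than 2-fold. All 12 macrophage markers were tested, none was called, and their summed level was 22132 to 22713 CPM with vehicle and 21777 to 22336 CPM with polyU. Summed levels of fibroblast, neutrophil, B cell, T or NK cell and epithelial markers stayed at or below 14.5 CPM in all 4 libraries, and the endothelial sum of 222 to 246 CPM came from Kdr and Vwf, while Tek, Emcn and Cldn5 had no read. The dendritic cell sum, 250 to 259 CPM with vehicle and 364 to 422 CPM with polyU, was almost wholly Bst2, which is also an IFN-stimulated gene, and Flt3, Xcr1, Siglech and Cd209a had no read. Gm42418, a gene that overlaps ribosomal RNA, took 0.869% and 1.35% of reads with vehicle and 2.42% and 2.61% with polyU, and mitochondrial genes took 1.34% and 1.69% against 1.92% and 2.08%. The part of these shifts in the results was not tested, and in such bulk libraries fewer cells of a type and less RNA per cell cannot be told apart.

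PolyU alone raised far more genes than it lowered. A gene was called, and is said to have risen or fallen, when it passed an adjusted p-value under 0.05 in limma and changed at least 2-fold. Of the 11978 genes, 478 (3.99%) were called, 385 (3.21%) higher and 93 (0.776%) lower, while the median log2 fold change over all genes was 0.02. The list counts below are to be read beside these shares. At an unadjusted p under 0.05 in limma, 5612 of the 11978 genes passed. Without the 2-fold limit, 2467 genes (20.6%) were higher and 2242 (18.7%) lower on the adjusted p-value alone. In all 478 called genes both polyU libraries lay on 1 side of both vehicle libraries, as they did, higher or lower, in 36.3% and 32.1% of all tested genes. The risers had a median fold of 2.88, with 110 of them at 4-fold or more and 45 at 8-fold or more. The fallers had a median log2 fold change of -1.20, and 13 of them fell at least 4-fold. In 13 of the 385 risers vehicle had no read, so the size of their folds depends on the small offset that every value carries. In 3 fallers polyU had no read, and their folds depend on the offset too. Such genes were not left out of the counts at 4-fold or more and at 8-fold or more. Together the 385 risers took 0.820% and 0.858% of reads in the vehicle libraries and 2.43% and 2.61% in the polyU libraries. In 5 of the risers and 3 of the fallers both groups averaged under 3 reads a library, so those calls rest on very few reads. Adding 1 CPM to every value before taking logs left 249 higher and 54 lower.

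**Figure D1:**
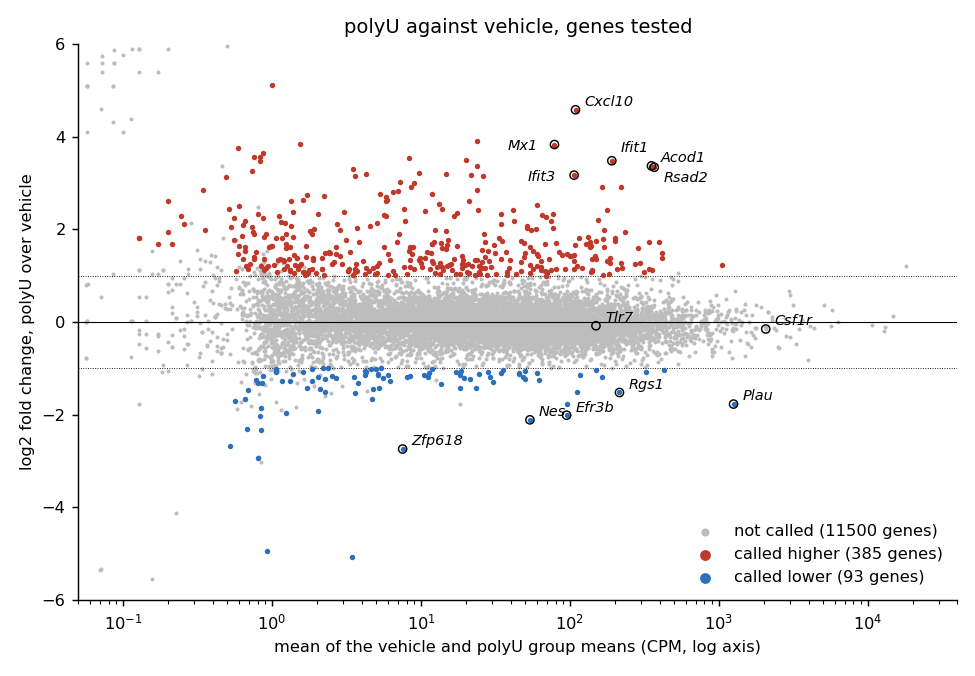
Mean level of each tested gene over the vehicle and polyU groups (CPM, log axis) against its log2 fold change, polyU over vehicle, with called genes in colour and 2-fold as dotted lines. Cxcl10 and Acod1 are among the abundant risers, Plau is the most abundant of the 93 fallers, and Tlr7 and Csf1r lie near 0 at -0.08 and -0.15, while 58 genes with no read in the 4 libraries or beyond the axis are not drawn.

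The genes that rose the most among those with at least 10 CPM were IFN-stimulated and inflammatory genes. Cxcl10 (chromosome 5, 92346638 to 92348889 of GRCm38), which encodes a chemokine that attracts activated T cells, stood at 11.0 and 6.91 CPM with vehicle and at 199 and 219 CPM with polyU. This was the largest rise among these genes, with a log2 fold change of 4.58 ± 0.26 (SE) and an adjusted p-value of 6.53e-05. Mx1 (chromosome 16, 97447035 to 97462907), a gene of the dynamin-like GTPase family, rose from 11.4 and 9.38 CPM to 136 and 159 CPM, a log2 fold change of 3.83 ± 0.11 (adjusted p = 9.52e-11). Its neighbour Mx2, which the annotation holds as a polymorphic pseudogene, rose from 3.42 and 2.58 CPM to 42.5 and 46.6 CPM. The rule for naming these genes took only those whose vehicle and polyU libraries did not overlap.

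Acod1, which makes the antimicrobial metabolite itaconate, was at 62.3 and 62.1 CPM with vehicle and at 613 and 673 CPM with polyU, a log2 fold change of 3.37 ± 0.10 (adjusted p = 1.97e-07). Rsad2, the antiviral enzyme viperin, was the most abundant of the 15 largest risers, at 72.7 and 59.6 CPM with vehicle and at 603 and 737 CPM with polyU. Socs3, a feedback inhibitor of cytokine signalling, rose from 4.60 and 3.82 CPM to 42.3 and 44.4 CPM. The lowest pair of vehicle values belonged to Cd69, a surface protein of activated leukocytes, at 0.842 and 2.02 CPM against 14.7 and 15.9 CPM with polyU, and its vehicle libraries differed by more on the log2 scale than those of Cxcl10. The remaining genes among the 15 each rose by 3.03 or more on the log2 scale. They were Gbp5, Ifit1, Ifit3, Ifit3b and Iigp1 of the antiviral effectors, Tnfsf10, the death ligand TRAIL, Ifi205 of the Ifi200 family, and the pseudogene Gm12250.

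**Figure D2:**
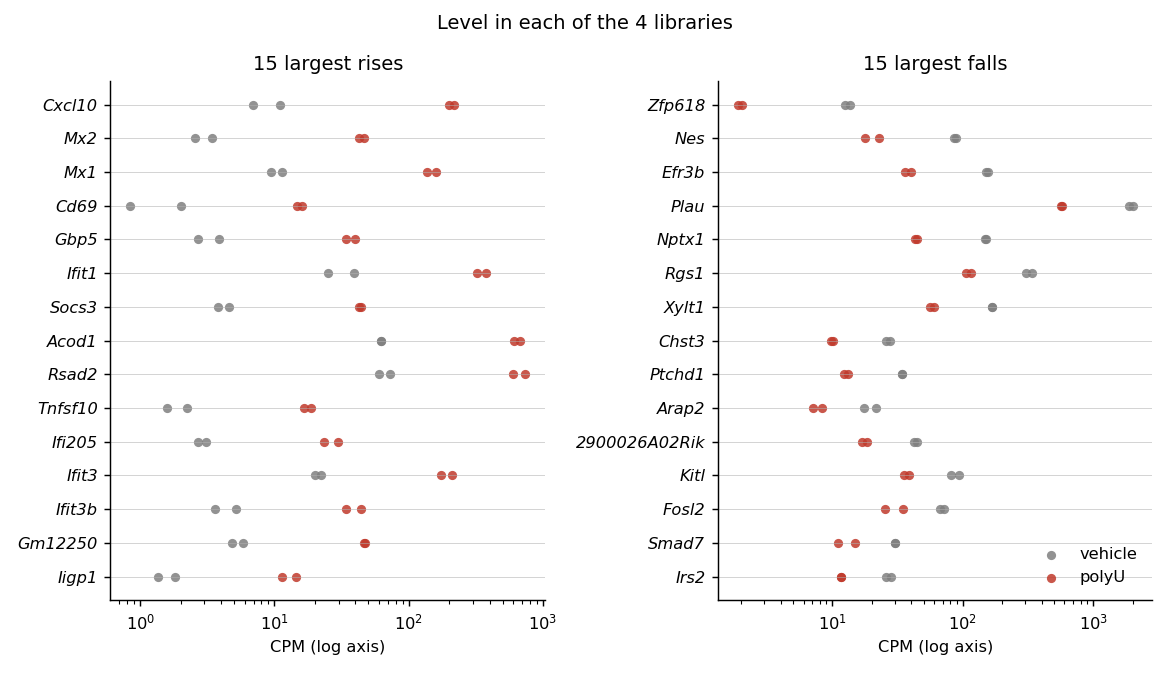
Level of the 15 largest risers and the 15 largest fallers in each vehicle and polyU library (points, CPM, log axis). They were taken from called genes that held 10 CPM in both libraries of either group and had no overlap between the 4 libraries. By this choice both polyU points lie on the same side of both vehicle points in every gene. The levels run from Cxcl10 at 6.91 to 11.0 against 199 to 219 CPM down to Irs2 at 25.7 to 28.1 against 11.6 to 11.7 CPM.

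The promoters of the largest risers held the letters of a known IFN-responsive element. Sequences are those of RefSeq on GRCm38.p6, taken from the 250 bases before the start, and 11 of the 15 genes had one. The core of the IFN-stimulated response element (ISRE), read as GAAA, any 2 bases and GAAA again, stood in 8 of these 11 on either strand, and a form of the kappaB site bound by NF-κB, read as GGGA, any base and TTTCC, in 1. The kappaB letters are 1 strict form, and other forms of the site were not searched and can stand in lower case below. The counts of 8 and 1 therefore do not compare the 2 elements. Of the promoters that held either set of letters, the first 6 in order of fold are shown, to give the letters in their place, and promoters without a match are not. They are printed on the strand of the gene and read 5′ to 3′, with matches to either set of letters in capitals. They lie at chr5:92348890-92349139 (minus strand) for Cxcl10, chr3:142496684-142496933 (plus) for Gbp5, chr19:34640639-34640888 (plus) for Ifit1, chr12:26456453-26456702 (minus) for Rsad2, chr1:174031756-174032005 (minus) for Ifi205 and chr19:34583279-34583528 (plus) for Ifit3.
Cxcl10: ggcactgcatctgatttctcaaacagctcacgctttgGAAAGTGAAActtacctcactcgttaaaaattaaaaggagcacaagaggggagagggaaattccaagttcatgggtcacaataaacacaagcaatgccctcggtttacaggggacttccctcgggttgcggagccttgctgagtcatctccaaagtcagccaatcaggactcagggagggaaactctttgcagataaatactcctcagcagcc
Gbp5: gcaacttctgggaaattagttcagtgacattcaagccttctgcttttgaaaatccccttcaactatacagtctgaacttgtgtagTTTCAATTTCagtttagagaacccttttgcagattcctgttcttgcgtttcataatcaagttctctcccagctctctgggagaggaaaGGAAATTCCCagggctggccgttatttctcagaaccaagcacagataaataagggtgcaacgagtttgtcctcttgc
Ifit1: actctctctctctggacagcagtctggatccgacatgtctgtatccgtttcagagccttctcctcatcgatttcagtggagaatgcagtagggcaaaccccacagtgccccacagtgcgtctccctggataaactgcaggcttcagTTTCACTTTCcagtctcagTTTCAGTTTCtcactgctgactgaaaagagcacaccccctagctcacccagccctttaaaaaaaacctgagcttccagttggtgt
Rsad2: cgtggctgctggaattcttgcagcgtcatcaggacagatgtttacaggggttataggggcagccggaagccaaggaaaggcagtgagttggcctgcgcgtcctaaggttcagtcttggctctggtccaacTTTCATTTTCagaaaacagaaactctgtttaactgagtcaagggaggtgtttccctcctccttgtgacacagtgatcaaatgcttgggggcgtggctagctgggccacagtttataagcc
Ifi205: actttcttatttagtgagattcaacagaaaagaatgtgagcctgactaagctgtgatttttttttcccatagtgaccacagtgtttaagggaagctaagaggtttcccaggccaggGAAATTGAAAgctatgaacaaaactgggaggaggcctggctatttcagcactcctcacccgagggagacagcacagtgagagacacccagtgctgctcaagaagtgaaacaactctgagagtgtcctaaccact
Ifit3: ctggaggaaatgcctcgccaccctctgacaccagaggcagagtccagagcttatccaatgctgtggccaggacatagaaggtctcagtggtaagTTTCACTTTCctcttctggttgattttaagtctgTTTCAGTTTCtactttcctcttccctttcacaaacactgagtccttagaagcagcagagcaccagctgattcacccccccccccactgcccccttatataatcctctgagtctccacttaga
Ifit1 and Ifit3, neighbours in 1 gene cluster, each held 2 ISRE cores, beginning 104 and 85 bases before the start in Ifit1 and 156 and 122 bases before it in Ifit3. Gbp5 held an ISRE core 165 bases and a kappaB match 77 bases before its start.

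Across all promoters the ISRE core was more frequent the larger the rise. Of the 9219 tested genes with a RefSeq promoter, 270 (2.93%) held it, against 49 of 286 risers (17.1%) and 3 of 65 fallers (4.62%). Among the risers the share was 30.8% of 78 promoters at 4-fold or more and 25 of 208 promoters below that. Its matches in risers lay closer to the start than those over all tested genes. The median from the end of the match to the start was 60.0 bases in risers and 130 bases over all. The positions of single promoters above were counted from the first base of the match instead. TTCNNNGAA, the core of the GAS element bound by STAT dimers, was in 23.1% of promoters that rose 4-fold or more, in 5.77% of the other risers and in 5.84% of all. TGAGTCA, the AP-1 site, was in 7.34% of risers, 7.69% of fallers and 3.00% of all, and the kappaB form in 2.10%, 0% and 0.347%. These are counts of letters and not of binding, and the promoters of risers were less rich in G and C (median 52.8%) than those of all tested genes (60.0%), whose part in the shares was not tested.

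**Figure D3:**
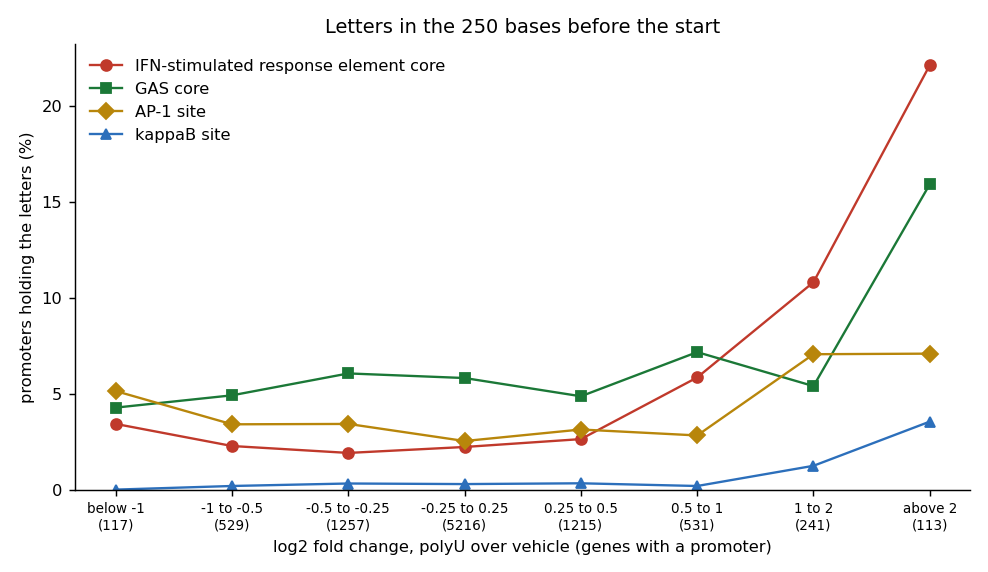
Share of RefSeq promoters (250 bases before the start, either strand, in %) that hold the letters of 4 elements, by log2 fold change of polyU over vehicle, with the number of promoters under each bin. The ISRE core is at 1.91% to 3.42% in every bin below 0.5 and reaches 22.1% above 2, where genes near 0 reads that were not called are included.

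IFN-induced antiviral effectors rose together. Of 79 genes on this list, which spans the Ifit, Oas, Mx, Slfn, Parp, Gbp and Irg families and the ISG15 system, 77 were tested, 52 rose (67.5%, beside 3.21% of all genes), none fell and 25 were not called. Their median log2 fold change was 1.43 beside 0.02 for all tested genes, and 71 of the 77 were higher on the adjusted p-value when the 2-fold limit was left out. The summed level of the list went from 6727 and 6528 CPM with vehicle to 12958 and 14023 CPM with polyU. The counts of 52 and 0 were the same after centring each library on its median.

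Among the Ifit genes, whose products bind foreign RNA ends, Ifit1 rose from 39.2 and 25.0 CPM to 324 and 375 CPM, Ifit2 from 58.6 and 45.3 to 350 and 429 CPM, and Ifit3 from 22.2 and 20.2 to 174 and 211 CPM. The 6 tested genes of the Ifit cluster on chromosome 19 all rose. Isg15, a ubiquitin-like protein attached to other proteins in IFN-treated cells, rose from 19.4 and 16.3 CPM to 93.1 and 113 CPM, and Usp18, the protease that removes it, from 29.3 and 18.8 to 106 and 120 CPM. Its activating enzyme Uba7 rose from 58.3 and 63.0 CPM to 146 and 157 CPM, while the conjugating enzyme Ube2l6 went from 63.0 and 58.5 to 88.1 and 95.8 CPM and did not reach 2-fold.

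The Oas family, of which some but not all members make 2-5A in response to double-stranded RNA, rose unevenly. Oasl1 rose from 28.3 and 23.1 CPM to 122 and 136 CPM, Oas1b from 4.66 and 3.93 to 20.6 and 26.3 CPM and Oas2 from 63.9 and 61.9 to 195 and 220 CPM. Oas3, the most abundant member, was at 252 and 225 CPM against 323 and 357 CPM, a log2 fold change of 0.51 ± 0.067. Reads could be shared between such near-identical family members, and the same holds for Slfn, Gbp, Irg and Ifi200 genes.

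The guanylate-binding proteins and IFN-inducible GTPases, which act on vacuoles that hold pathogens, rose together. Gbp2, Gbp3, Gbp5 and Gbp7 rose by 1.75 or more on the log2 scale, and Irgm1, Irgm2, Igtp, Iigp1 and Tgtp2 by 1.62 or more. Several abundant restriction factors on the list were not called. Ifitm3, which blocks viral entry, was at 662 and 689 CPM against 759 and 812 CPM, Ly6e at 825 and 878 against 816 and 853 CPM, and Shisa5 at 438 and 457 against 433 and 462 CPM. Samhd1, the dNTP hydrolase that also restricts viruses, was at 271 CPM in both vehicle libraries and at 382 and 409 CPM with polyU, a log2 fold change of 0.55 ± 0.051 (adjusted p = 5.08e-07).

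Reads on the IFN genes themselves were scarce. Of the 21 type I, II and III IFN genes listed, only Ifnb1, which encodes IFN-β, passed the filter. It had 0.0561 and 0 CPM with vehicle and 0.455 and 0.174 CPM with polyU, which is 1 and 0 reads against 8 and 3 reads. The difference did not pass the test (adjusted p = 0.185) but passed it with 0.1 CPM added to all values (adjusted p = 0.0273) and with limma-voom on reads (adjusted p = 0.0157), and its value rests on 12 reads in all.

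Signalling downstream of the IFN receptors rose at its transcription factors and feedback inhibitors and not at the receptors. Of 24 genes, 6 rose and none fell, with a median log2 fold change of 0.38. Stat2 rose from 100 and 93.9 CPM to 351 and 396 CPM, a log2 fold change of 1.94 ± 0.078 (adjusted p = 3.03e-09). Irf1 rose from 21.5 and 22.2 CPM to 102 and 115 CPM. Socs1, like Socs3 an inhibitor of this pathway, rose from 2.69 and 2.08 CPM to 12.2 and 13.5 CPM, and the factor Batf2 rose by 1.46 on the log2 scale.

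The IFN regulatory factors differed among themselves. Irf7, which drives IFN-α genes, was at 265 and 263 CPM against 396 and 469 CPM, a log2 fold change of 0.71 ± 0.089 (adjusted p = 1.99e-04). Irf5, the factor downstream of TLR7 for inflammatory cytokines, was at 273 and 303 CPM against 300 and 329 CPM (adjusted p = 0.136). Irf8, a lineage factor of monocytes and macrophages, was lower, at 222 and 239 CPM against 150 and 156 CPM, without reaching 2-fold. The receptor subunits Ifnar1, Ifnar2, Ifngr1 and Ifngr2 had log2 fold changes of 0.36, 0.08, 0.07 and 0.27.

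Cytosolic nucleic acid sensors rose with the effectors. Of 16 tested, 10 rose and none fell, with a median log2 fold change of 1.41. Ddx58, which encodes the RNA sensor RIG-I, rose from 71.8 and 62.1 CPM to 201 and 216 CPM, and Zbp1, a sensor of Z-form nucleic acid, by 2.00 on the log2 scale to 88.9 and 99.4 CPM. Ifih1, which encodes the RNA sensor MDA5, went from 59.9 and 51.5 CPM to 110 CPM in both polyU libraries, just short of the limit at 0.99 on the log2 scale. The adaptors Mavs and Tmem173 (STING) had log2 fold changes of 0.12 and -0.12.

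The gene of the endosomal receptor for ssRNA did not pass the test. Tlr7 was at 166 and 142 CPM with vehicle and 148 and 142 CPM with polyU, and the libraries overlapped (log2 fold change -0.08 ± 0.070, adjusted p = 0.379). Among 37 tested genes of the TLR pathway 2 rose (5.41%, beside 3.21% of all genes) and none fell, with a median of 0.09. They were Tlr2, a surface receptor for bacterial lipoproteins, from 53.0 and 59.3 CPM to 306 and 296 CPM, and its partner Tlr1, from 33.6 and 31.0 to 73.6 and 77.4 CPM. Tlr8 was at 89.4 and 76.8 CPM against 107 and 99.5 CPM, and Tlr9, the DNA receptor, at 17.5 and 16.1 against 27.1 and 27.3 CPM. Unc93b1, the chaperone that brings these receptors to endosomes, was at 564 and 588 CPM against 712 and 728 CPM, and Myd88 at 74.5 and 73.7 against 101 and 111 CPM, each under 2-fold. Tlr13, the sensor of bacterial ribosomal RNA, was lower, at 650 and 658 CPM against 494 and 456 CPM, a log2 fold change of -0.46 ± 0.044 (adjusted p = 6.62e-07).

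**Figure D4:**
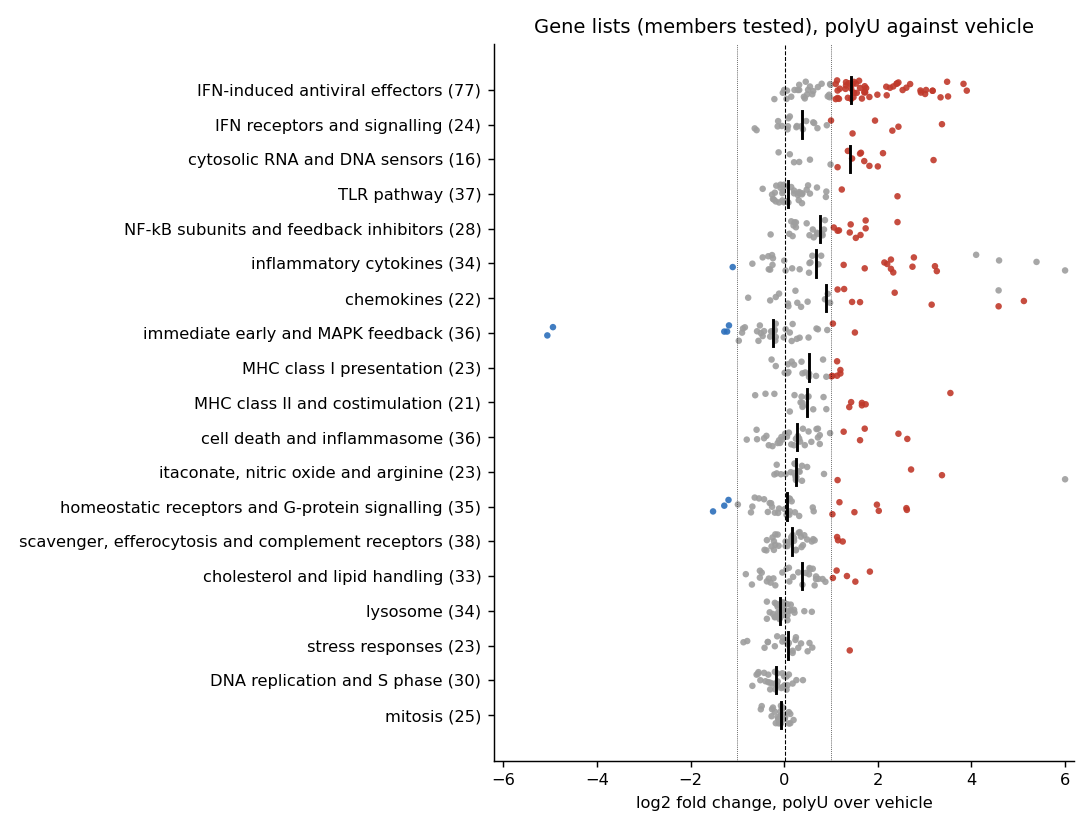
Log2 fold change of polyU over vehicle for every tested member of 19 gene lists (points, red for risers, blue for fallers, grey for not called) with the median of each list as a black bar, the median of all genes as a dashed line and 2-fold as dotted lines. Antiviral effectors and cytosolic sensors have medians above 1, the immediate early list has the lowest points, and the lysosome, replication and mitosis lists have no coloured point, while values beyond 6 are drawn at 6.

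Most NF-κB genes were higher, but by less than the antiviral effectors, and a part reached 2-fold. Of 28 subunits and feedback inhibitors 10 rose and none fell, with a median log2 fold change of 0.76. Without the 2-fold limit, 24 were higher and 1 lower on the adjusted p-value in limma, beside 20.6% and 18.7% of all genes. Nfkbia, the inhibitor IκBα that NF-κB induces against itself, rose from 90.4 and 96.2 CPM to 309 and 311 CPM, a log2 fold change of 1.74 ± 0.065 (adjusted p = 4.56e-10). Nfkbiz, a nuclear cofactor needed for Il6 and Il12b, rose from 13.1 CPM in both libraries to 67.9 and 72.1 CPM. The subunits Relb and Nfkb2 rose by 1.63 and 1.42 on the log2 scale, while Nfkb1, Rel and Rela had values of 0.71, 0.22 and 0.11. Tnfaip3, which encodes the inhibitor A20, was at 107 and 116 CPM against 149 and 162 CPM, under 2-fold.

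A part of the inflammatory cytokines rose. Of 34 tested, 11 rose, 1 fell and 22 were not called, with a median log2 fold change of 0.67. The summed level of the list was 1942 and 1947 CPM with vehicle and 1795 and 1821 CPM with polyU. Tnf, the most abundant of the risers, went from 53.2 and 56.4 CPM to 245 and 259 CPM, a log2 fold change of 2.20 ± 0.073 (adjusted p = 8.69e-10). Il12b, a subunit of IL-12 and IL-23, rose from a mean of 1.35 CPM to 8.07 and 10.5 CPM, and the anti-inflammatory Il10 from 2.02 and 1.97 to 8.92 and 10.5 CPM. Both stayed near 10 CPM, well below Tnf in reads. The other risers were Tnfsf10, Edn1, Tnfsf15, Il27, Tnfsf4, Il15, Il15ra and Csf1. Vegfa, the angiogenic factor, was the faller, from 45.8 and 48.3 CPM to 21.7 and 22.2 CPM.

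Of the IL-1 family, neither Il1b nor Il1a was called. Il1b was at 2.13 and 1.97 CPM with vehicle and at 3.81 and 3.31 CPM with polyU, a log2 fold change of 0.79 ± 0.084 (adjusted p = 2.17e-06) that did not reach 2-fold. Il1a was at 1.01 CPM in both vehicle libraries against 1.70 and 0.755 CPM, which overlap. Il6 had 1 and 0 reads with vehicle, 0.0561 and 0 CPM, and 1.08 and 1.28 CPM with polyU. It did not pass the test (adjusted p = 0.0612), and it passed in 7 of 14 alternative settings, such as 0.1 CPM added to all values (log2 fold change 3.35, adjusted p = 3.90e-09). Csf2 had no read in any of the 4 libraries.

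Chemokines rose in 8 of 22 tested genes, with none lower and a median log2 fold change of 0.90. Cxcl11, with Cxcl10 a ligand of CXCR3, went from 1 read in each vehicle library to 1.93 and 1.98 CPM, while the third ligand Cxcl9 was at 0.449 CPM in both vehicle libraries against 0.966 and 0.697 CPM and was not called. The neutrophil attractants Cxcl1 and Cxcl2 rose from 0.729 and 0.730 CPM to 7.22 and 5.81 CPM and from 5.61 and 5.79 to 29.2 CPM in both libraries. Ccl3 and Ccl4, attractants of monocytes and T cells, rose from 111 and 106 CPM to 244 and 285 CPM and from 56.0 and 58.5 to 140 and 174 CPM. Ccl5, an attractant of T cells, was at 46.0 and 51.7 CPM against 57.3 and 61.4 CPM, and the monocyte attractant Ccl2 at 374 and 334 against 385 and 360 CPM.

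Immediate early genes, which respond within minutes to growth factors and stress, went mostly the other way. Of 36 tested, 5 fell and 2 rose, with a median log2 fold change of -0.24, and without the 2-fold limit 19 were lower and 9 higher at an adjusted p-value under 0.05. Fosb, an AP-1 subunit, fell from 6.57 and 6.69 CPM to 0.114 and 0.349 CPM, which is 2 and 6 reads. Its log2 fold change was -5.06 ± 0.46 (adjusted p = 4.62e-07), and with 1 CPM added to all values it was -2.64 and still called. Egr3, a zinc-finger factor induced by growth signals, fell from 1.46 and 2.14 CPM to 1 read in each polyU library. Fosl1, Fosl2 and Nr4a1 fell from 8.92 and 8.60 CPM to 3.69 and 3.54 CPM, from 66.8 and 71.1 to 34.9 and 25.2 CPM, and from 11.0 and 11.2 to 4.49 and 5.35 CPM. Under the 2-fold limit, Fos and Junb, AP-1 subunits too, had log2 fold changes of 0.18 and 0.69, and Egr1 and Egr2 of -0.43 and -0.97. Ptgs2, the inducible cyclooxygenase, and the phosphatase Dusp2 rose, by 1.51 and 1.04. Fosl2 was at -0.98 without polyU replicate 2 and Dusp2 at 0.98 without vehicle replicate 2, each then under the 2-fold limit.

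Antigen presentation rose modestly and by parts. Of 23 genes for MHC class I presentation 6 rose and none fell, with a median of 0.53. These were the peptide transporter Tap1, from 87.2 and 88.9 CPM to 185 and 201 CPM, the immunoproteasome subunit Psmb9, and H2-Q4, H2-Q6, H2-Q7 and H2-T22 of the non-classical class I genes. The classical H2-K1 was at 1241 and 1353 CPM against 1633 and 1776 CPM and H2-D1 at 1950 and 2047 against 2202 and 2409 CPM, both under 2-fold. Psmb9 and H2-Q7 lay near the limit, at 1.03 and 1.01, and lost their calls when libraries were centred, and H2-Q7 also without polyU replicate 2 (0.91).

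Among MHC class II and costimulatory genes 6 of 21 rose and none fell. The costimulators Cd40 and Icosl, the adhesion molecule Icam1 and the inhibitory ligand Cd274 (PD-L1) rose by 1.66, 1.39, 1.74 and 1.43 on the log2 scale, beside Cd69 and Tnfrsf14. Cd74, the invariant chain, was lower under the 2-fold limit, at 695 and 777 CPM against 550 and 563 CPM, and the costimulator Cd86 had a log2 fold change of -0.62. The class II chains H2-Aa, H2-Ab1 and H2-Eb1 had log2 fold changes of 0.37, 0.39 and 0.40.

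Metabolic and lipid genes showed narrow changes. Of 23 genes of itaconate, nitric oxide and arginine metabolism, Acod1, Nos2 and Sod2 rose and none fell. Nos2, the inducible nitric oxide synthase, stayed scarce, from 0.449 and 0.730 CPM to 2.95 and 4.77 CPM. Sod2, the mitochondrial superoxide dismutase, rose from 134 and 126 CPM to 292 and 280 CPM. Hk2, Slc2a1 and Pfkfb3 of glycolysis were not called, at log2 fold changes of -0.07, -0.16 and -0.21.

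Of 33 genes of cholesterol and lipid handling 5 rose and none fell, with a median of 0.39. Insig1, a sterol-sensitive regulator, rose from 21.9 and 23.1 CPM to 56.9 and 57.4 CPM, and Fdft1 and Mvd, enzymes of cholesterol synthesis, by 1.12 and 1.04. Mvd was at 0.94 without polyU replicate 2 and at 0.88 without vehicle replicate 1. Nr1h3, the oxysterol receptor LXRα, rose from 43.9 CPM in both libraries to 121 and 132 CPM. Further enzymes of synthesis were higher without reaching 2-fold, among them Hmgcs1 at 0.88 and Cyp51 at 0.68. The exporters were lower under the 2-fold limit, Abcg1 at 73.5 and 68.2 CPM against 37.5 and 42.6 CPM and Abca1 at 58.4 and 64.8 against 49.2 and 45.8 CPM. The carrier DOTAP is itself a lipid, and its part in these genes cannot be told apart from that of the RNA.

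Genes of the list of homeostatic receptors and G-protein regulators changed in both directions. Of 35 tested, 7 rose, all of them receptors, and 3 fell, of which only Gpr35 is a receptor. Gpr84, a receptor for medium-chain fatty acids, rose from 30.4 and 30.5 CPM to 125 and 121 CPM, and the formyl peptide receptors Fpr1 and Fpr2 by 2.61 and 1.98 on the log2 scale. Rgs1, a regulator that dampens chemokine receptor signals, fell from 336 and 302 CPM to 106 and 116 CPM, a log2 fold change of -1.52 ± 0.067 (adjusted p = 2.31e-10). Rgs16 fell from 5.11 and 4.72 CPM to 2.22 and 2.09 CPM. Gpr35 fell from 2.24 and 1.52 CPM to 0.909 and 0.639 CPM and did not pass without polyU replicate 2 (adjusted p = 0.0567) or vehicle replicate 1 (0.0678). Of 38 scavenger, efferocytosis and complement receptors the C-type lectins Clec4a1, Clec4a3 and Clec4e rose (7.89%, beside 3.21% of all genes) and none fell.

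Of 36 genes of cell death and inflammasomes 5 rose (13.9%, beside 3.21% of all genes) and none fell. Fas, the death receptor, rose from 1.74 and 1.57 CPM to 9.94 and 10.5 CPM and Casp4, the caspase that senses lipopolysaccharide, from 12.2 and 12.8 to 39.2 and 42.9 CPM. The others were the anti-apoptotic paralogs Bcl2a1a, Bcl2a1b and Bcl2a1d, whose reads cannot be told apart with certainty. None of 34 lysosomal genes was called in limma or in limma-voom, beside 3.99% of all genes in limma. At an unadjusted p under 0.05 in limma 15 were lower and 6 higher, beside 5612 of all 11978 genes. Of 23 stress genes only Ddit4 rose (4.35%, near the 3.21% of all genes), from 0.337 and 0.506 CPM to 1.02 and 1.16 CPM.

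No gene of the proliferation lists was called. None of 30 genes of DNA replication and none of 25 of mitosis was called in limma, with medians of -0.17 and -0.07, and with the adjusted p-value alone 9 and 2 were lower and none higher. At an unadjusted p under 0.05 in limma, 10 replication genes were lower and 2 higher and 2 mitosis genes lower, beside 5612 of all 11978 genes. Limma-voom on reads also called none. Over all genes limma called 3.99%, so few calls would be looked for in lists of this size. Mcm2, a subunit of the replicative helicase, was at 160 and 148 CPM against 150 and 128 CPM. Mki67, a marker of cycling cells, was at 746 and 655 CPM against 547 and 448 CPM, a log2 fold change of -0.50 ± 0.12 (adjusted p = 0.0140).

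The largest falls among abundant genes were outside the immune lists. Plau (chromosome 14, 20836660 to 20843385), the urokinase that activates plasmin, fell from 1885 and 1999 CPM to 575 and 561 CPM, a log2 fold change of -1.77 ± 0.076 (adjusted p = 6.83e-09). It was by far the most abundant of the 15 largest fallers. Zfp618, a zinc-finger protein, fell most on the log2 scale, from 12.5 and 13.7 CPM to 1.88 and 2.03 CPM (-2.74 ± 0.18). Nes, the intermediate filament nestin, fell from 88.7 and 86.0 CPM to 22.8 and 17.9 CPM, and Efr3b, a membrane anchor of a lipid kinase complex, from 149 and 156 to 35.7 and 40.0 CPM.

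Of the rest, Nptx1, a neuronal pentraxin, fell from 149 and 147 CPM to 42.7 and 44.5 CPM, Kitl, the ligand of KIT, from 92.8 and 81.5 to 38.4 and 35.5 CPM, and Xylt1 and Chst3, enzymes that build and sulphate chondroitin chains, from 167 and 166 to 59.7 and 56.4 CPM and from 25.6 and 27.8 to 9.72 and 10.1 CPM. Smad7, the inhibitor of TGF-β signalling, and Irs2, an adaptor of the insulin receptor, fell by 1.22 and 1.20 on the log2 scale. Ptchd1, Arap2, 2900026A02Rik, Rgs1 and Fosl2 complete the 15.

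Risers were shorter genes than fallers. The median span from start to end in the annotation was 14.4 kb for the 385 risers and 36.3 kb for the 93 fallers, beside 22.6 kb for all tested genes. Among protein-coding genes with at least 10 CPM it was 16.7 kb for 193 risers, 68.0 kb for 37 fallers and 25.5 kb for all 8572. Protein-coding genes made up 85.5% of risers, 90.3% of fallers and 93.1% of tested genes.

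Risers also lay next to each other. A second riser was found within 100 kb of 142 of the 385 (36.9%), while 9.15% of all tested genes lay that close to a riser. For fallers the values were 6 of 93 (6.45%) and 1.97%. The densest run was the Ifi200 family on chromosome 1, 173468485 to 174031810. There 10 of 12 tested genes rose, among them Ifi204, Ifi205 and Mndal. Full runs were found for the 6 Ifit genes on chromosome 19 (34550694 to 34650009), 5 genes around Phf11 on chromosome 14 (59276913 to 59440884), 5 around H2-Q on chromosome 17 (35377021 to 35443773) and the 4 tested Gbp genes on chromosome 3 (142493978 to 142638008). In the Trim30 run on chromosome 7, 6 of 9 tested genes rose, and in the Slfn run on chromosome 11, 5 of 8. Families of close copies share reads, so single members of these runs are uncertain.

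PolyU was also given on top of PNPi+dG/rG, which allowed its effect to be measured in 4 other libraries. PNPi+dG/rG+polyU was compared with PNPi+dG/rG, a pair that shares no library with polyU and vehicle. There 914 genes (7.63%) were higher and 1662 (13.9%) lower. Of the 385 genes that rose with polyU alone, 325 (84.4%) rose here too and 1 fell, and their median log2 fold change was 2.64 beside 1.52 with polyU alone. Of the 93 that fell, 73 (78.5%) fell here and 1 rose, with medians of -2.26 and -1.20. The genes that went the other way, Col6a1 and Tmem200b, had at most 1 read in each vehicle and polyU library. The median of all genes was -0.25, and centring the libraries gave 1149 higher and 1082 lower.

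The polyU effect itself differed between these backgrounds in many genes. An interaction test, the polyU effect with PNPi+dG/rG minus that without, called 545 genes (4.55%) higher and 1062 (8.87%) lower, and 751 and 567 after centring. With PNPi+dG/rG+polyU, Ifit3 stood at 210 and 209 CPM, next to 174 and 211 CPM with polyU alone, and had an interaction of -0.21 (adjusted p = 0.178). The antiviral effectors were divided, with 13 of 77 higher and 1 lower in this test, or 27 and 1 after centring. Mx1, Mx2 and Gbp5 passed, with 1.41 (adjusted p = 9.74e-06), 1.42 (adjusted p = 6.13e-06) and 2.86 (adjusted p = 8.28e-06). Ifit1 and Rsad2 did not pass, with 0.91 (adjusted p = 0.0691) and 0.57 (adjusted p = 0.0714). Of the 28 NF-κB genes 20 were higher and none lower, and of the 34 cytokines 16 and 2. Tnf reached 3415 and 3154 CPM against 245 and 259 CPM with polyU alone, an interaction of 3.11 (adjusted p = 4.12e-10).

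Compared directly with polyU alone, PNPi+dG/rG+polyU had 634 genes (5.29%) higher and 1219 (10.2%) lower, or 829 and 755 after centring. Of the 77 antiviral effectors 24 were higher and 1 lower, a median of 0.73 beside -0.24 over all genes, and 37 and 1 after centring. For the 28 NF-κB genes the counts were 22 and 0 with a median of 1.80, and for the 34 inflammatory cytokines 18 and 3 with 1.86. Il12b was at 8.07 and 10.5 CPM with polyU alone and at 1801 and 1847 CPM with the combination, and Il1b at 3.81 and 3.31 against 661 and 736 CPM. The 5 cholesterol genes that rose with polyU alone had differences between -0.47 and 0.12 on the log2 scale, and none was called. Nr1h3 stood at 136 and 138 CPM beside 121 and 132 CPM.

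R848 was higher than polyU alone for NF-κB genes and cytokines and mixed for the antiviral effectors. Over all genes 39.1% were called, of which 904 (7.55%) were higher and 3783 (31.6%) lower, with a median of -0.56, and centring gave 1778 and 1944. Of the 77 antiviral effectors 27 were lower and 8 higher with R848, a median of -0.62 that does not stand apart from that of all genes and came to 0.02 after centring, with 15 lower and 13 higher. Within the list single genes differed widely. Ifit3 had a mean of 28.9 CPM over the R848 libraries, beside 22.2 and 20.2 CPM with vehicle, and was 2.73 lower on the log2 scale than with polyU (adjusted p = 1.43e-12). Mx1 was at 35.9 and 42.0 CPM and Rsad2 at 146 CPM in both R848 libraries, each lower than with polyU, while Gbp5 was at 294 and 310 CPM, higher than the 33.9 and 39.5 CPM with polyU.

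The NF-κB genes and cytokines were higher with R848 under every scaling tried. Of 28 NF-κB genes 20 were higher and 1 lower (median 1.87), and of 34 inflammatory cytokines 23 higher and 4 lower (median 2.76), with 24 and 1 and with 24 and 4 after centring. Il1b reached 6558 and 6751 CPM with R848. Acod1 reached 4112 and 4274 CPM with R848, and the combination gave 4284 and 4358 CPM, against 613 and 673 CPM with polyU alone. Plau, at 575 and 561 CPM with polyU, was at 10.7 and 11.9 CPM with R848. The replication and mitosis lists, with no call for polyU against vehicle, were lower with R848 than with polyU in 29 of 30 and 25 of 25 genes, with medians of -4.06 and -6.50. Markers of other cell types also stood apart in the R848 libraries. The 10 fibroblast markers summed to 145 to 153 CPM, against 1.34 to 1.36 CPM with polyU and 5.45 to 6.26 CPM with PNPi+dG/rG+polyU, and came mostly from Col1a1, Col1a2 and Pdgfrb, while Lum and Thy1 stayed below 0.1 CPM with R848. The neutrophil sum reached 25.2 CPM with R848, nearly all S100a8, with no read of Ly6g, Mpo or Elane. The endothelial sum was 64.7 to 70.0 CPM with R848 and 143 to 144 CPM with PNPi+dG/rG+polyU, against 222 to 246 CPM with polyU. The macrophage sum was 20061 to 20680 CPM with R848, and the part of these shifts in the R848 differences was not tested.

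**Figure D5:**
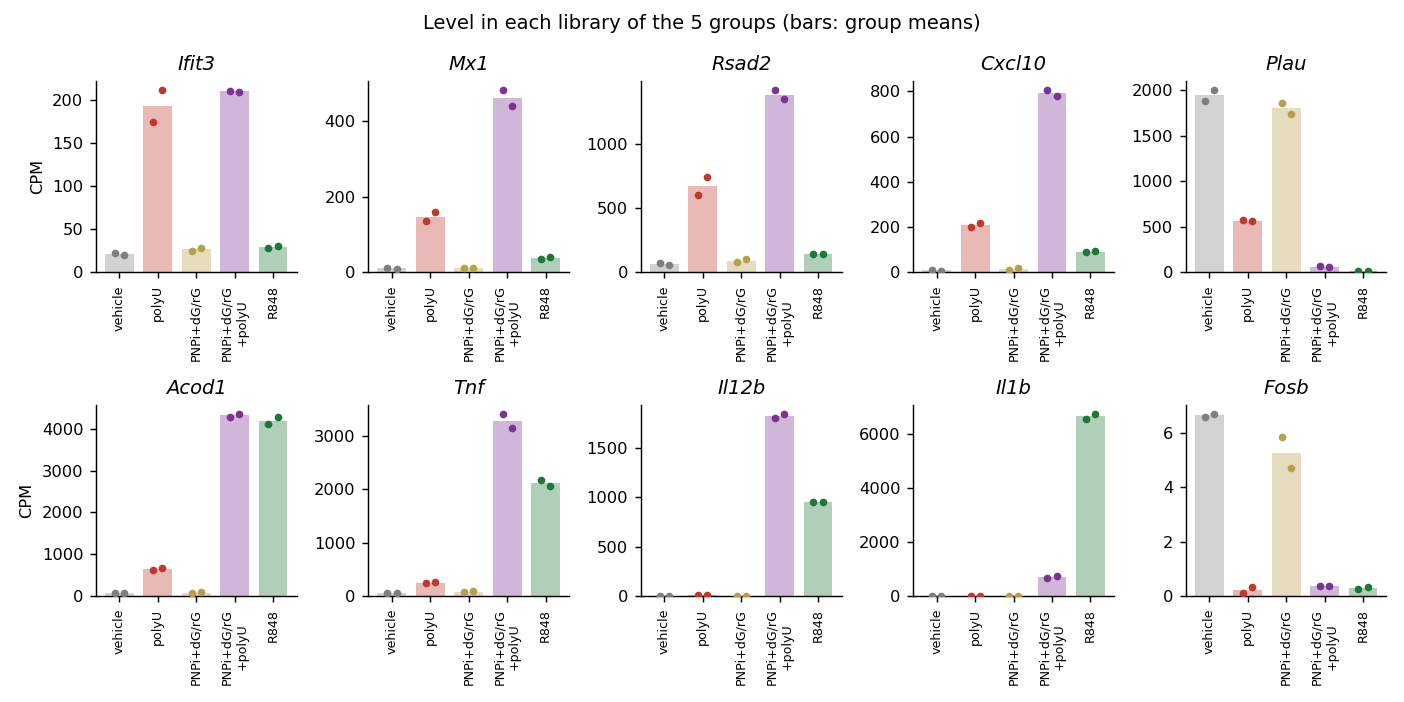
Level of 10 genes in each library of the 5 groups (points, CPM) with group means as bars from 0. PolyU alone is close to PNPi+dG/rG+polyU for Ifit3 (174 and 211 against 210 and 209 CPM), is above R848 for Mx1, Rsad2 and Cxcl10, and is far below both for Acod1, Tnf, Il12b and Il1b, while Fosb is below 0.4 CPM in all 3 groups that received polyU or R848.

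The gene for the enzyme that ulodesine inhibits also responded to polyU. Pnp, which encodes purine nucleoside phosphorylase, was at 46.3 and 47.8 CPM with vehicle and at 79.5 and 82.6 CPM with polyU, a log2 fold change of 0.79 ± 0.065 (adjusted p = 1.44e-07) that did not reach 2-fold. Its close copy Pnp2, which overlaps it on chromosome 14, rose from 0.505 and 0.393 CPM to 2.61 and 2.03 CPM, and reads of this pair cannot be told apart with certainty.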

How the data were processed

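RNA of 10 BMDM libraries, 2 in each of 5 groups set by the labels, was sequenced by the authors as single reads of 50 bp on a HiSeq 3000 after a stranded mRNA preparation. Per the paper's methods and the labels, base calls came from bcl2fastq 2.19.1.403, reads were mapped with STAR 2.27a to GRCm38 and counted on Ensembl release 97, and the authors deposited CPM, reads per 1000000 reads on genes, with an offset of 0.0001 on every value. CPM carries no correction for strongly induced genes that take a larger share of a library, and keeps no gene length. How reads on overlapping or near-identical genes were assigned is not given in the sources used here. Columns of all 10 libraries were used and none of another series was found.

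Low values rose in steps of 1 read (100.0% whole within 0.1 read in every library), from which depth was worked out as 14.1 to 38.4 M (1000000) reads on genes. The main test used the deposited values, and limma-voom on the recovered reads was run as an alternative. Genes with 1 CPM or more in 2 or more of the 10 libraries were tested on log2 of the deposited values with limma 3.58.1 in R 4.3.3, with all 5 groups in 1 model, eBayes with trend and robust, and Benjamini-Hochberg adjustment over 11978 genes. A fold change is on this log2 scale with its offset, so the fold of a gene at 0 in a group has no meaning of its own and is not printed. A call needed an adjusted p-value below 0.05 and a 2-fold change. At the edge of the filter, Cnn1 and Alpk2 were just inside (second highest library at 1.009 CPM for each) and 4732496C06Rik and CR555305.3 just outside (0.9909 CPM). Reads were also simulated at the mean levels of these libraries, and 11628 genes were tested. There limma recovered 100 of 100 genes changed 4-fold and 100 of 100 changed 2-fold (adjusted p-value only), with 2 unchanged genes called. The simulation gave every gene the same small spread and changed only genes well above the filter. It therefore does not cover calls that rest on few reads or genes near the 2-fold limit.

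Named genes were the 15 largest risers and 15 largest fallers with at least 10 CPM in both libraries of vehicle or polyU and no overlap, members of the gene lists, and a few set genes such as Tlr7 and Pnp. The comparison, the lists and the naming rule were chosen with earlier results of these data known, so list counts are descriptions. A few members of these lists are counted but not reported here. Symbols and positions are those of GENCODE M21 (Ensembl release 96), which named 55480 of 55573 genes. Replicates were not copies of each other, since 25.6% of genes in vehicle and 26.3% in polyU differed beyond the 5% level of counting noise. Same-numbered libraries showed no strong positive correlation of their deviations (-0.286 to 0.109 over 10 pairs of groups), so no block was used in the main fit. The lowest values were those of PNPi+dG/rG with vehicle (-0.286) and with polyU (-0.273), and pairings in another order were not tested. Alternatives were pseudocounts of 0.1 and 1 CPM, other filters, other scalings, limma-voom on the recovered reads, plain eBayes, only the groups compared, a replicate block and leaving out each library.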

Additional observations from a re-analysis of the deposited data

Results flagged for a closer look

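The effect of polyU differed with PNPi+dG/rG in 1607 genes (13.4% of those tested) by the interaction test in limma, at an adjusted p-value below 0.05 and a 2-fold difference. Of 8 genes set for this test, 6 passed the adjusted p-value, each with a larger rise on top of PNPi+dG/rG, while Ifit1 and Rsad2 did not. The difference of log2 fold changes was 1.41 for Mx1, 1.18 for Cxcl10, 3.55 for Ccl4, 3.11 for Tnf, 7.51 for Il1b and 1.88 for Nfkbia. The value of Cxcl10 was near the threshold (adjusted p = 0.0449). It did not pass with the replicate block (0.0792), with no filter (0.0816), with only the groups compared (0.0628) or without either polyU library, either PNPi+dG/rG+polyU library or PNPi+dG/rG replicate 1 (0.0863 to 0.117), and was 0.92 without the last of these. Il1b was at 2.13 and 1.97 CPM with vehicle, 3.81 and 3.31 CPM with polyU, 2.11 and 2.30 CPM with PNPi+dG/rG and 661 and 736 CPM with PNPi+dG/rG+polyU.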

How the results depend on the processing

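The rises and falls with polyU kept their direction in every alternative run for the 160 named genes that were called, and 142 of them were called in all alternatives. With 1 CPM added to all values the counts for polyU against vehicle moved to 249 higher and 54 lower, and 13 named genes lost their call. Other settings gave 352 to 467 higher and 80 to 129 lower. Leaving out each library in turn gave 334 to 423 higher and 78 to 124 lower for polyU against vehicle, 588 to 623 and 1131 to 1300 for PNPi+dG/rG+polyU against polyU, 844 to 872 and 3700 to 3876 for R848 against polyU, 859 to 886 and 1528 to 1709 for polyU on top of PNPi+dG/rG, and 516 to 566 and 947 to 1161 for the interaction. Centring libraries on their median gave 755 lower for PNPi+dG/rG+polyU against polyU, 1778 higher and 1944 lower for R848 against polyU, 1082 lower for polyU on top of PNPi+dG/rG and 567 lower for the interaction. Scaling by a trimmed mean gave 1383 higher and 2357 lower for R848 against polyU and 663 lower for the interaction. These scalings set the median gene near 0, which was -0.56 for R848 against polyU and -0.27 for the interaction. The same numbers mark no shared animal or day in the labels. A fit that took the replicate number as block called 387 and 91 for polyU against vehicle, 633 and 1217, 904 and 3783, 911 and 1654, and 543 and 1055 for the other comparisons in the order above. Depth limits genes below about 0.2 CPM, among them the IFN genes.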

Other observations

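Genes outside the lists, chosen after their values were seen, included further innate receptors and lipid mediators. Nod1 and Nod2, cytosolic sensors of bacterial cell wall fragments, rose by 1.77 and 1.68 on the log2 scale, Nod2 from 5.11 and 6.24 CPM to 16.6 and 19.8 CPM. Mefv, which encodes the inflammasome protein pyrin, rose by 1.70 on the log2 scale from 6.73 and 5.96 CPM. Rnf213, a large ubiquitin ligase, was the most abundant of these at 648 and 596 CPM against 1422 and 1505 CPM. Ptges, the prostaglandin E synthase that acts after Ptgs2, rose from 7.74 and 9.16 CPM to 25.7 and 26.6 CPM. Pou2f2, the transcription factor OCT2, rose from 65.1 and 71.0 CPM to 268 and 273 CPM, a log2 fold change of 1.99 ± 0.055 (limma, adjusted p = 1.49e-12). Hcar2, the niacin receptor, rose from 2.86 and 3.15 CPM to 11.6 and 10.9 CPM.

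The further fallers named here, outside the lists, were scarce genes, also chosen after their values were seen. They do not stand for the rest, since 39 of the 93 fallers held at least 10 CPM in both libraries of vehicle or polyU. Pmepa1, an inhibitor of TGF-β signalling as Smad7 is, fell from 4.15 and 3.31 CPM to 2.05 and 1.28 CPM, and Tgfb3 from 3.87 and 3.03 to 1.99 and 1.16 CPM. Hbegf, a ligand of the EGF receptor, fell from 1.74 and 0.899 CPM to 0.227 and 0.523 CPM.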
